A study of Lens culinaris with 18 samples.

Results

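In leaves of lentil seedlings given polyethylene glycol (PEG), 60 of 124151 assembled transcripts were well below control at 24 h and at 0.8 of control or more at 96 h, some of them far above it, with limited PEG differences in root. They were chosen from the deposited TMM-scaled TPM values, a length-normalised abundance set to a common total and then multiplied by 1 factor per library, with 1 added to each value before any ratio. A member had a mean of at least 5 over the 8 leaf libraries and at least 2 over the 8 root libraries. At 24 h its highest leaf drought value was at most 0.5 times its lowest leaf control value. Its leaf drought over control ratio was at least 0.8 at 96 h, and its root ratio lay within 0.5 to 2 at both times. Of 12046 transcripts that met the level limits, 1217 showed the leaf fall, 197 of these also met the 96 h limit, and 60 met the root limits too. All 60 were kept, since the list was limited to 150.

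Seedlings of the lentil cultivar Sultan (Lens culinaris, wild type), 7 days old, were moved to aerated nutrient solution with 15% PEG 6000 (drought) or without it (control). They were kept in light for 16 h and dark for 8 h, at 25 °C by day and 18 °C by night. The libraries used here were leaf drought and leaf control, and root drought and root control, each at 96 h and at 24 h, with 2 biological replicates in each of the 8 groups. The labels do not say whether plants were pooled. The 2 unstressed stem samples of the series were not analysed here.

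PEG draws down the water potential around the root while being little taken up, so leaves meet a water deficit through the root. Leaf cells commonly respond first by closing stomata and by abscisic acid signalling, and growth and photosynthesis genes are often turned down. Over longer exposure many plants adjust their osmotic balance, and part of the early response is reversed. The deposited identifiers come from an assembly and are not paired with gene names, so the roles of the members and the markers of the labelled tissues could not be examined here. No sequences were at hand to print.

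A recovery of the drought level described only some of the members. A return of the drought level toward the 24 h control would be one way to meet the rule, and a lower control at 96 h would be another. In 29 of the 60 the 96 h control was at least 2-fold below the 24 h control while the 2 drought levels lay within 2-fold of each other. Over the 12046 transcripts meeting the level limits, the 96 h drought level had a median of 0.626 of the 24 h control level. It was at least 0.8 of that level in 39.7% of them and at most 0.5 in 40.3%. Among the 1157 other transcripts with the level and the 24 h fall, these shares were 9.85% and 82.1%. Among the members only 16 (26.7%) were at 0.8 or more, and 33 (55%) were at 0.5 or less. The members are therefore called here transcripts that were lowered in leaf at 24 h of PEG and were not far below control at 96 h. All leaf values below describe what the rule selected and carry no test of the members.

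Facts of the libraries bear on the values. Deposited totals were 514669 to 943452 in 13 libraries. The 2 drought libraries of leaf at 96 h had 6997680 and 6699070, and replicate 2 of the root 24 h controls had 5832570. A single assembled component of 3 transcripts, which the rule leaves out, made up 81.1% and 76.3% of the leaf 96 h drought libraries. It made up 92.4% and 23.3% of root 24 h control replicates 2 and 1, and at most 0.0991% of any other library. How the libraries were scaled against each other therefore mattered for every 96 h leaf ratio. In bulk tissue, fewer cells of a type and less RNA per cell cannot be told apart.

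At 24 h the median member stood at 5.62 and 5.66 TMM-scaled TPM in the leaf drought libraries, against 21.0 and 22.3 in the leaf control libraries. The drought over control ratio of means had a median of 0.354 and ran from 0.0721 to 0.477. The ratio of the lowest control to the highest drought library, by which members were ranked, was 2 to 3 in 42 members, 3 to 5 in 11 and at least 5 in 7. The fall was therefore 2-fold to 3-fold for most members, with a short tail of deep falls. Just inside the limit the ratio was 2.01 and just outside it 2.00. By limma, 54 of the 60 (90.0%) were lower in leaf drought at 24 h at adjusted p under 0.05, where 15.9% of all 28176 transcripts tested were. The rule used this contrast, so nothing is read from that count.

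At 96 h the median member was at 15.7 and 14.7 in the leaf drought libraries and at 10.7 and 9.18 in the leaf control libraries. The ratio had a median of 1.08 and ran from 0.806 to 47.7, with 0.786 as the highest value just outside the limit. It was at least 2 in 11 members, 1 to 2 in 30 and 0.8 to 1 in 19. Both drought libraries lay above both control libraries in 22 members and below both in 8, and the libraries overlapped in the other 30. Limma called 16 (26.7%) higher, beside 16.9% of all transcripts tested, and 1 (1.67%) lower, beside 42.2%. The rule used these values too, so these shares and the counts of overlap are a description only. Overlap was not counted over all transcripts, so no share can be set beside the members' counts.

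**Figure D1:**
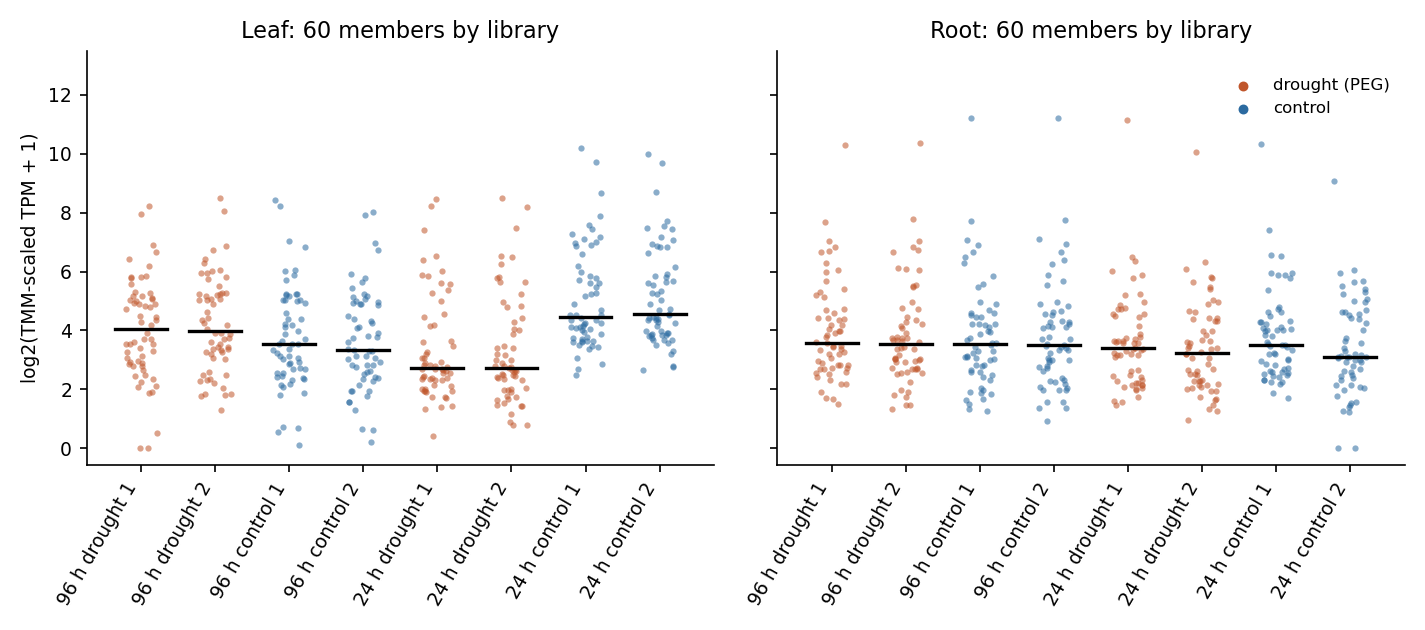
Each point is 1 of the 60 members, plotted as log2(TMM-scaled TPM + 1) in each leaf (left) and root (right) library, drought in orange and control in blue, with black bars at the median. In leaf, the 24 h drought medians of 5.62 and 5.66 lie lowest and the 24 h control medians of 21.0 and 22.3 highest; the root medians all lie between these 2 groups.

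The 96 h drought replicates were less close than their controls. They were at least 2-fold apart for 13 members, against 0 members for the 96 h controls. These 2 drought libraries are those of which the component left out by the rule made up 81.1% and 76.3%. Replicate differences were not counted over all transcripts, so this is not read as a trait of the members. At 24 h the drought replicates were at least 2-fold apart for 4 members, and the controls for 0. Both 96 h drought libraries on their own reached 0.8 of the control mean in 40 of the 60 members. In the other 20, 1 of the 2 drought libraries was below it.

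The change between the times came from both arms in unequal parts. The members' leaf control ratio, 96 h over 24 h, had a median of 0.374, where that of all 12046 transcripts meeting the level limits was 0.980. The leaf drought ratio, 96 h over 24 h, had a median of 1.52 in the members and 0.634 in those 12046. The 96 h control was below the 24 h control in 54 of the 60, and the 96 h drought level was above the 24 h drought level in 42. The 1157 other transcripts with the level and the 24 h fall had median ratios of 0.706 in control and 0.696 in drought. A 2-fold lower control at 96 h was seen in 40 members (66.7%), 31.7% of the 1157 and 10.4% of the 12046. A 2-fold higher drought level at 96 h was seen in 22 members (36.7%), 18.4% of the 1157 and 10.2% of the 12046. The 96 h limit itself favours a high drought level or a low control, so these differences are a description of the choice.

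By these 2-fold limits the members fell into 5 patterns. The 96 h limit bears on each pattern, so the shares set beside the members' describe the choice. The most common pattern, in 29 members (48.3%), was a control at least 2-fold lower at 96 h with drought within 2-fold. It covered 13.1% of the 1157 and 5.07% of the 12046. Medians of these 29 were 10.6 and 13.9 in 96 h drought, 10.7 and 9.35 in 96 h control, 7.40 and 9.49 in 24 h drought, and 36.9 and 36.3 in 24 h control. In this pattern the median 96 h control was close to the median of drought leaves at 24 h. All 4 members with a leaf mean of at least 100 belonged to it. The most abundant, ranked 21 by the fall, was at 300 and 356 in 96 h drought leaves and at 340 and 239 in 96 h control leaves. At 24 h it was at 355 and 360 in drought leaves and at 1178 and 1027 in control leaves. Its mean over the leaf libraries was 68.1 times that over the root libraries, both with 1 added. The next, ranked 23, was at 245 and 267 in 96 h drought, at 299 and 256 in 96 h control, at 298 and 292 in 24 h drought and at 845 and 829 in 24 h control. In both, the 24 h controls alone stood high among the leaf libraries.

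The pattern closest to a return had drought at least 2-fold higher at 96 h and control within 2-fold. It covered 6.05% of the 1157 and 5.60% of the 12046. This pattern was found in 12 members (20%). Their medians were 14.7 and 25.1 in 96 h drought, 10.6 and 12.6 in 96 h control, 2.77 and 2.66 in 24 h drought, and 13.2 and 12.8 in 24 h control. Of these 12, 11 had a 96 h drought level of at least 0.8 of the 24 h control. The member ranked 25 was at 100.8 and 115 in 96 h drought leaves, against 131 and 123 in 96 h control leaves. It was at 40.8 and 26.7 in 24 h drought leaves, against 117 and 113 in 24 h control leaves, so the 24 h drought libraries alone were low. The member ranked 32 went past its controls, with 85.7 and 85.5 in 96 h drought and 23.0 and 30.2 in 96 h control. At 24 h it had 17.3 and 18.3 in drought and 47.3 and 50.8 in control.

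Both changes, a drought level at least 2-fold higher and a control at least 2-fold lower at 96 h, formed a further pattern. It covered 3.98% of the 1157 and 1.02% of the 12046. This pattern was found in 10 members (16.7%). Their medians were 28.5 and 25.0 in 96 h drought, 8.14 and 6.39 in 96 h control, 4.01 and 3.89 in 24 h drought, and 36.2 and 41.4 in 24 h control. Of the 7 deepest falls at 24 h, 5 were of this kind. In 8 further members (13.3%) neither arm changed 2-fold, beside 26.8% of the 1157 and 42.2% of the 12046. In 1 member (1.67%) both arms were at least 2-fold lower at 96 h, beside 14.6% and 4.30%. That single member, ranked 26, was listed at 0 and 2.41 in 96 h drought, at 0.064 and 0.143 in 96 h control, at 11.2 and 8.07 in 24 h drought and at 35.3 and 32.0 in 24 h control. It met the 96 h limit because both arms had become very low, and its ratio at such levels rests mostly on the added 1. No member had a control at least 2-fold higher at 96 h, beside 16.2% of the 1157 and 10.7% of the 12046. The 96 h limit works against a raised control, so nothing is read from this.

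**Figure D2:**
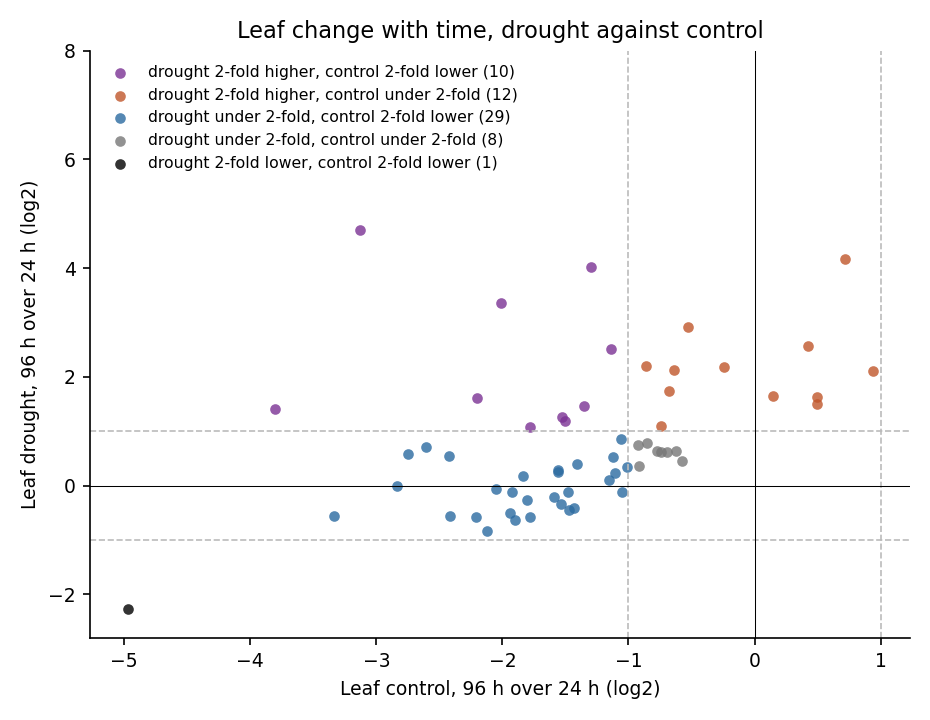
Each point is 1 of the 60 members, with the leaf control change with time (96 h over 24 h, log2 ratio of means with 1 added) on the horizontal axis and the leaf drought change on the vertical axis; dashed lines mark 2-fold. The cloud lies left of 0 for 54 members and above 0 for 42, with 29 members in the band where only control is at least 2-fold lower.

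TRINITY_DN40791_c0_g1 had the deepest fall. Its level was 2.86 and 1.89 in 24 h drought leaves, against 43.2 and 48.5 in 24 h control leaves, a lowest control 11.4 times the highest drought value. At 96 h it was at 55.6 and 52.4 in drought leaves, against 17.3 and 18.8 in control leaves. The groups did not overlap at either time and their order was opposite. It was mainly a root transcript, with 1256 and 1303 in 96 h drought roots, 2351 and 2371 in 96 h control roots, 2268 and 1057 in 24 h drought roots and 1278 and 535 in 24 h control roots. The leaf mean was 0.020 of the root mean, both with 1 added. Root drought and control were apart at 96 h and overlapped at 24 h.

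TRINITY_DN48213_c0_g1 had the next deepest fall and also the largest change with time in root. In leaf at 24 h it was at 0.322 and 0.725 in drought, against 16.5 and 19.7 in control. At 96 h it was at 21.0 and 32.0 in drought leaves, against 32.1 and 28.7 in control leaves, so the groups overlapped. Another transcript of the same component was low with it, at 1.52 and 1.76 in 24 h drought leaves against 44.7 and 48.9 in 24 h control leaves. At 96 h that second transcript was at 44.4 and 27.5 in drought leaves, below both controls at 84.7 and 72.8. It missed the 96 h limit with a ratio of 0.463. Transcripts of 1 component may share reads, so the pair is not 2 independent observations.

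TRINITY_DN47673_c0_g1 had the highest 96 h ratio and was chosen after its values were seen. It was at 71.7 and 77.4 in 96 h drought leaves, against 0.644 and 0.523 in 96 h control leaves. At 24 h the order was opposite, with 1.64 and 2.19 in drought leaves against 11.9 and 13.8 in control leaves. Drought leaves at 96 h were thus far above every other leaf library. In root it averaged 10.2 ± 4.59 in 96 h drought, 5.80 ± 0.208 in 96 h control, 7.64 ± 5.32 in 24 h drought and 7.28 ± 0.0997 in 24 h control (SD, n = 2 each).

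**Figure D3:**
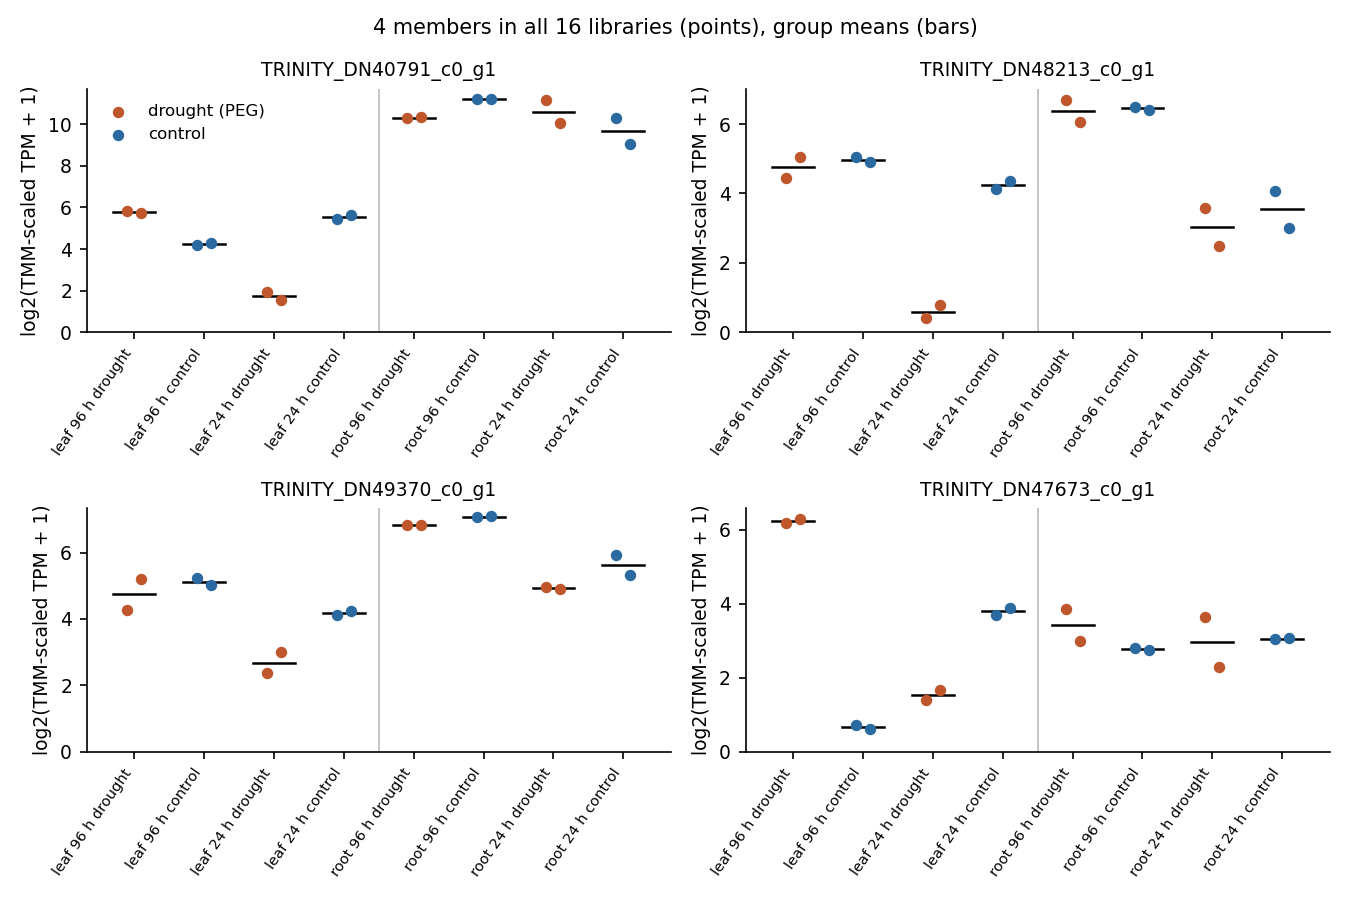
Points show the 4 named members in each of the 16 libraries as log2(TMM-scaled TPM + 1), with bars at the group means, drought in orange and control in blue, leaf left of the grey line and root right of it. In each, the 24 h drought leaves lie below the 24 h control leaves by at least 2-fold, while the root ratio at each time is held within 0.5 to 2 by the rule.

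The change of the members with time in root was not used by the rule, apart from the root limits on drought over control and on the mean, so it was tested. With limma on log2(value + 1), 15 of the 60 members (25.0%) were higher and 2 (3.33%) lower in root drought at 96 h over 24 h at adjusted p under 0.05. Over all 34082 transcripts tested these shares were 16.6% and 10.3%, and over the 6925 that met the level and root limits they were 12.4% and 10.4%. The members' median log2 fold change was 0.39, in a range of −1.58 to 3.35, beside 0.12 over all transcripts tested and 0.10 over the 6925. In root control, 10 members (16.7%) were higher and 6 (10.0%) lower, beside 28.9% and 8.05% of all transcripts tested and 15.5% and 4.98% of the 6925. Their median was −0.01, beside 0.36 and 0.25. The share of members higher in root control was close to that of the 6925, and the share lower in root control was close to that of all transcripts tested. Of the members, 6 (10.0%) were called higher in both arms, beside 5.36% of all transcripts tested and 4.59% of the 6925. Called lower in both were 2 (3.33%), beside 1.49% and 1.75%, and called in opposite directions were 0, beside 4.41% and 1.31%. The arms share 1 estimate of the spread, and no test was made of these shares.

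The root counts moved with single libraries, and the share called over all transcripts tested moved with them. Without 96 h drought replicate 1 or 2, limma called 2 or 6 members higher in root drought (3.33% and 10.0%), beside 4.42% and 5.41% of all transcripts tested. Without 24 h drought replicate 1 or 2 it called 7 or 5 (11.7% and 8.33%), beside 9.64% and 7.90%. Without 96 h control replicate 1 or 2 it called 7 and 7 (11.7% each), beside 12.2% and 12.2%. Without 24 h control replicate 1 or 2 it called 26 and 26 (43.3% each), beside 30.2% and 29.9%. The members' share higher in root drought, 25.0% beside 16.6% as reported, was thus below that of all transcripts without 96 h drought replicate 1 and without either 96 h control replicate. With libraries set to the same total it was 0% beside 7.14%. Beside the 6925 the share was above with each of the 8 root libraries left out, at 3.33% beside 1.46% without 96 h drought replicate 1, and below at the same total, at 0% beside 0.347%. The excess over all transcripts therefore did not hold under every setting run. Members lower in root drought numbered 0 and 1 without a 96 h drought replicate, beside 3.81% and 4.70% of all transcripts, and 1 and 2 without a 24 h drought replicate, beside 5.63% and 5.07%. They numbered 2 and 2 without a 96 h control replicate, beside 8.17% and 8.18%, and 7 and 8 without a 24 h control replicate, beside 18.1% and 17.9%. In root control, 2 and 1 members were higher without 96 h control replicate 1 or 2, beside 4.47% and 4.40%, and 25 and 12 without 24 h control replicate 1 or 2, beside 49.4% and 31.1%. Members lower in root control numbered 0 and 0 without a 96 h control replicate, beside 1.39% and 1.33%, and 11 and 11 without a 24 h control replicate, beside 13.2% and 16.5%. All root libraries bear on each count, since the 4 root groups share 1 estimate of the spread.

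**Figure D4:**
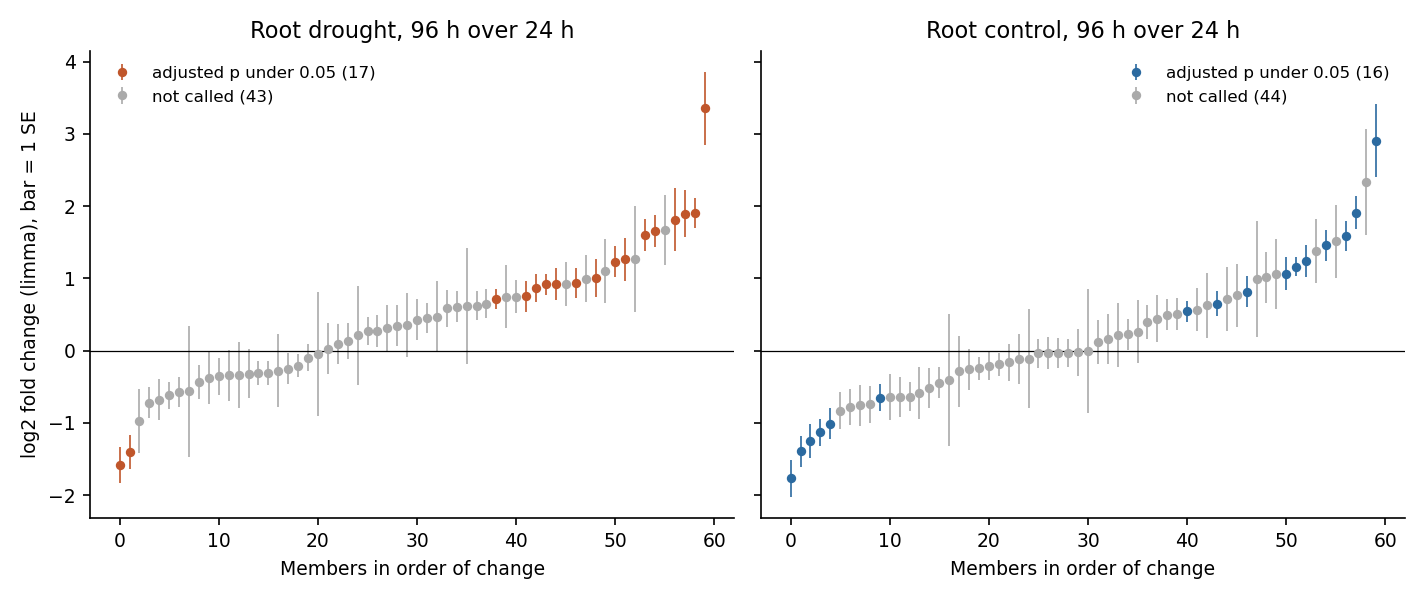
Points are the log2 fold change, 96 h over 24 h, of each of the 60 members in root drought (left) and root control (right), in order of size, with bars of 1 SE from limma; coloured points passed adjusted p under 0.05. In drought 17 members passed, 15 of them higher, and in control 16 passed, 10 of them higher.

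TRINITY_DN48213_c0_g1 was at 103 and 65.8 in 96 h drought roots, against 10.9 and 4.56 in 24 h drought roots. By limma this was a log2 rise of 3.35 (SE 0.51, adjusted p = 0.00711). In control roots it was at 89.6 and 83.5 at 96 h, against 15.9 and 7.06 at 24 h, and the log2 difference by limma was 2.91 (SE 0.51, adjusted p = 0.00667). It rose in both arms, with no overlap between the times.

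TRINITY_DN49370_c0_g1, ranked 47 by the leaf fall, had the next largest called rise in root drought. It was at 113 and 113 in 96 h drought roots, against 29.9 and 28.8 in 24 h drought roots (log2 fold change 1.91, SE 0.21, limma adjusted p = 0.00289). In control roots it was at 133 and 136 at 96 h, against 60.1 and 38.7 at 24 h (1.46, SE 0.21, limma adjusted p = 0.00326). In leaf it was at 4.17 and 6.96 in 24 h drought against 16.4 and 18.0 in 24 h control, and at 18.4 and 36.0 in 96 h drought against 36.3 and 31.3 in 96 h control. Both arms of its leaf and its root were higher at 96 h than at 24 h.

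TRINITY_DN40791_c0_g1 did not pass in root. Its log2 fold change, 96 h over 24 h, was −0.28 in drought (SE 0.51, limma adjusted p = 0.787) and 1.51 in control (SE 0.51, limma adjusted p = 0.0650). With the replicate number as a block the control change passed, at adjusted p = 0.0467 by limma. The difference between the time changes, drought minus control, was called higher for 7 of the 60 members (11.7%) and lower for 1 (1.67%) by limma, beside 12.2% and 26% of all transcripts tested. It equals the root drought over control difference at 96 h less that at 24 h. The rule bounds both, so large values were removed in advance and nothing is read from these shares. The difference did not pass for any of these 3 named members. It was −1.79 for TRINITY_DN40791_c0_g1 (limma adjusted p = 0.103), 0.45 for TRINITY_DN48213_c0_g1 (limma adjusted p = 0.664) and 0.45 for TRINITY_DN49370_c0_g1 (limma adjusted p = 0.297).

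PEG differences in root were kept small by the rule. The root drought over control ratio had a median of 1.14 at 96 h (0.542 to 1.95) and 0.878 at 24 h (0.506 to 1.97). These are ratios of means of 2 replicates. At 24 h the root control replicates were at least 2-fold apart for 12 members and the root drought replicates for 6. At 96 h they were so for 0 and 1. Limma called 8 members (13.3%) at 96 h and 2 (3.33%) at 24 h in either direction, where 36.8% and 18.2% of all transcripts tested were called. Nothing is read from these counts, since the limits removed larger differences.

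The members' leaf level relative to root moved with the arms. The median of the leaf over root ratio was 1.03 in 96 h drought and 0.987 in 96 h control, and it was 0.707 in 24 h drought and 2.17 in 24 h control. Leaf was the higher tissue for 32, 29, 26 and 52 of the 60 in those 4 conditions. These are 53.3%, 48.3%, 43.3% and 86.7% of the members. Over the 12046 transcripts the medians were 0.720, 1.04, 1.11 and 1.27 in the same order. Leaf was higher for 37.6%, 52.3%, 55.8% and 65.0% of them. Among the 4 conditions, the members' median was well above 1 in 24 h control alone. The rule required leaf drought well below leaf control at 24 h with root ratios bounded, so the gap between the 24 h medians describes the choice. Averaged over all libraries, 18 members were at least 2-fold higher in leaf, 6 at least 2-fold higher in root and 36 within 2-fold.

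The members were spread over 60 different assembled components, so no 2 of them came from 1 component. Another transcript of the component was in the table for 30 members, 44 in all, and 14 of these had a leaf mean of at least 1. Of the 14, 10 had a 24 h leaf drought over control ratio below 1 and 5 a ratio of at most 0.5, with a median of 0.591 and a range of 0.0552 to 2.32. Over all 24720 transcripts with such a leaf mean, the median was 1.00 and 13.7% were at 0.5 or less. These transcripts may share reads with the members, and no test was made.

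Membership depended on how the libraries were scaled. Each alternative rescaled all 16 libraries, so the leaf and the root limits could both change, and their parts were not separated. With median-ratio size factors 112 transcripts met the rule, 54 of them members. With the dominant component removed and libraries set to the same total, 14 met it, 11 of them members. With libraries set to the same total and the component kept, 3 met it, all of them members. The members' median log2 ratio of drought over control in leaf at 96 h was 0.12 at the deposited scaling, 0.65 under median-ratio size factors, −0.66 with the component removed and −2.16 at the same total. The median of the 12046 moved too, and was −0.64, −0.13, −1.35 and −2.88 under these scalings. In each scaling the members' median lay above that of the 12046, which the 96 h limit favours. The 24 h fall moved little, with a median log2 ratio of −1.50 as deposited and −1.57, −1.29 and −1.31 under the others.

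**Figure D5:**
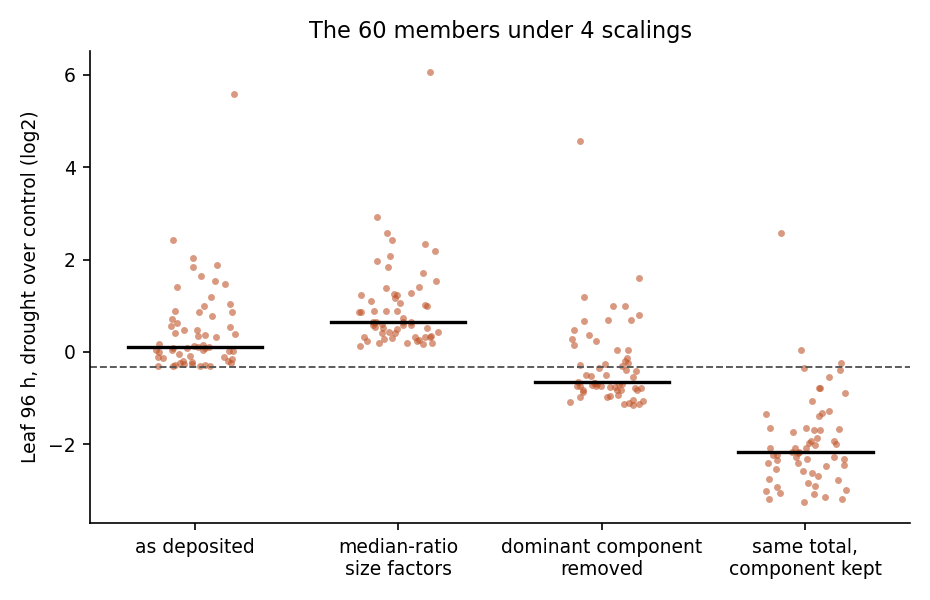
Each point is 1 of the 60 members, with its leaf drought over control ratio at 96 h (log2 of means with 1 added) under the deposited scaling and 3 others; black bars are medians and the dashed line is the limit of 0.8 in the rule. The medians are 0.12, 0.65, −0.66 and −2.16 from left to right.

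The 11 members that also met the rule with the component removed had a deposited 96 h ratio of at least 1.39. In 8 of them the drought level was at least 2-fold higher at 96 h than at 24 h. They included TRINITY_DN40791_c0_g1 and TRINITY_DN47673_c0_g1, but neither TRINITY_DN48213_c0_g1 nor TRINITY_DN49370_c0_g1. By pattern they were 4 of the 12 closest to a return and 4 of the 10 with both changes. The rest were 2 of the 29 with a lower control alone, and the member ranked 26. Of the 11, 10 met the rule with median-ratio size factors as well. The 2-fold lower control at 96 h was less dependent on scaling, in 40, 33 and 33 members under the 3 other scalings, against 40 as deposited. A 2-fold higher drought level was seen in 34, 11 and 3, against 22 as deposited. The median log2 leaf drought change of the 12046, 96 h over 24 h, was −0.66 as deposited. Under the 3 other scalings it was −0.10, −1.39 and −2.91, so all transcripts shifted with the scaling. Shares over all transcripts were not counted under these scalings, so the counts are not read as a trait of the members.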

How the data were processed

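Polyadenylated RNA was sequenced as read pairs from libraries that mark the strand, per the labels' protocols. The deposited values are a signal per assembled transcript in a table that its name marks as TMM-scaled. Of low values (above 0, under 0.5), 100% lay in each library on the grid that TPM rounded to 2 decimals leaves after multiplication by 1 factor. The submitters' processing notes name edgeR, RSEM, Trimmomatic 0.35 and FastQC 0.11.5 without saying what each was used for. Neither assembler version nor filters were stated in the sources at hand. Read depth is unknown, so no counting intervals are given.

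Limma 3.58.1 (R 4.3.3) was fitted per tissue to log2(value + 1), with a coefficient for each of the groups, a trended and robust eBayes step and Benjamini-Hochberg adjustment over all transcripts with at least 1 in at least 2 libraries. Fold changes on that scale understate those of low transcripts. The spread behind each p-value is that between these replicates alone. Ratios used means with 1 added (Python 3.11.15). Named were the 2 deepest leaf falls, the 2 largest called rises in root drought with no overlap between times, and 1 transcript seen to have the highest 96 h ratio. The members, limits and tests were chosen with earlier results of these data known. The fit was tested on simulated data. Alternatives were other pseudocounts, filters, scalings, spread estimates, a replicate block and leaving out each library.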

Additional observations from a re-analysis of the deposited data

How the results depend on the processing

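Shares in parentheses are those of all transcripts tested under the same setting. Relative to 15 members higher (16.6%) and 2 lower (10.3%) in root drought, 96 h over 24 h, counts were 9 higher (6.77%) without a filter, 4 lower (16.8%) with a filter of 5, 6 lower (12.8%) with median-ratio size factors, 0 higher (7.14%) and 0 lower (3.29%) at the same total, and 24 higher (33.4%) and 6 lower (20.7%) with the spread of the 4 compared libraries alone. Relative to 10 higher (28.9%) and 6 lower (8.05%) in root control, they were 12 lower (11.7%) with the dominant component removed, 3 higher (28.9%) and 0 lower (0.739%) at the same total, and 6 higher (26.4%) with the spread of the 4 compared libraries. Leaving out 1 library gave 2 to 26 higher and 0 to 8 lower in drought, and 1 to 25 higher and 0 to 11 lower in control. The cause was not tested. At the same total the dominant component stays in the total, which by itself lowers other transcripts in the libraries it fills. Among root libraries these are 24 h control replicates 2 and 1 (92.4% and 23.3%), and it was at most 0.0991% of each root drought library. The root drought log2 change of TRINITY_DN48213_c0_g1 was 3.55 at the same total, with an SE of 1.17. As reported it was 3.35, with an SE of 0.51.

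With a replicate block, 14 members were higher (14.3%) and 2 lower (8.74%) in drought, and 11 higher (27.6%) and 5 lower (6.83%) in control. The labels do not say whether libraries with the same replicate number share a batch. Deviations of same-numbered libraries had correlations of −0.08 to 0.04 in leaf and −0.08 to 0.08 in root, which do not settle it.

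TRINITY_DN48213_c0_g1 had log2 changes of 2.80 to 3.90 in root drought (limma adjusted p 0.00306 to 0.112) and 2.37 to 4.22 in root control (0.00200 to 0.0725), each called under 16 of 18 alternatives. TRINITY_DN49370_c0_g1 had 1.78 to 2.07 (0.000286 to 0.408, called under 17) and 1.15 to 3.09 (0.000342 to 0.0964, called under 15). TRINITY_DN40791_c0_g1 had −0.83 to 0.28 in root drought (0.399 to 1), the value of 0.28 without 24 h drought replicate 1, and 0.89 to 3.24 in root control (0.0111 to 0.247, called under 2).

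Against 60 as reported, 112 transcripts met the rule with median-ratio size factors, 14 with the component removed and 3 at the same total. With 0.5 and 5 added, 57 and 65 met it, 54 and 38 of them members. With 1 leaf library left out, 52 to 80 met it. Members among them numbered 48 to 60, with 50 and 48 without 96 h drought replicate 1 or 2. With 5 added, 15 members had a 2-fold higher drought level and 32 a 2-fold lower control, against 22 and 40 as reported. Members with a 2-fold higher drought level numbered 34, 11 and 3 under the 3 scalings and 21 to 22 with 1 leaf library left out, and those with a 2-fold lower control 39 to 41. The median log2 ratio at 96 h turned to −0.66 and −2.16 with the component removed and at the same total. Depth was unknown, so low values carry no error from counting.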
